A study of Mus musculus with 8 samples.

Results

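The genes described here are 38 genes of the unfolded protein response and of the amino acid stress response. They were chosen by name, and each was read from 1 probe set, the one with the highest mean deposited signal over 8 arrays among those annotated to that gene alone. All 38 were on the array, out of 18193 genes with such a probe set, and all 38 passed the filter on dim genes that 12673 genes passed. They comprise 8 regulators, 14 targets of the transcription factor ATF4, 13 chaperones and folding enzymes of the endoplasmic reticulum (ER), and 3 genes of ER-associated degradation. Of the ATF4 targets, 5 act in stress signalling and 9 in amino acid supply.

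When unfolded proteins build up in the ER, the sensors PERK, IRE1 and ATF6 are activated. ATF6 and the spliced form of XBP1 drive genes of ER folding and degradation. PERK, like the amino acid sensor GCN2, phosphorylates the translation factor eIF2α, which slows protein synthesis while favouring translation of the Atf4 mRNA. ATF4 then induces amino acid synthesis and uptake, and the stress genes Ddit3, Trib3 and Chac1. Secretory epithelia such as the mammary gland rely on the ER branch, and kidney tubule cells are known for activating both branches under injury.

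The data come from 4 mouse epithelial lines. EpH4 and NMuMG are of mammary origin, whereas mProx and MCT derive from kidney tubules. Each line gave 1 array at rest and 1 after 24 h of stimulation with recombinant human growth factors, TGF-β1 (3 ng/mL) together with EGF (3 ng/mL), a treatment used to induce the epithelial-mesenchymal transition (EMT), and EpH4 is labelled EMT resistant. All cells, resting ones included, had spent the 24 h before in modified K-1 medium with transferrin and insulin. No mutation, transgene or sorting is named in the labels, each line is a single established line, and the labels do not say whether the 4 lines were cultured together. A level below is log2 of the deposited MAS5 intensity plus 10.6 after quantile normalization, a change is the stimulated minus the resting level of a line, and a level under 5.27 is called dim.

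The labelled identity held only in part. Of 8 epithelial markers, 7 were above the dim level on both EpH4 arrays, 5 on those of NMuMG and MCT and 4 on those of mProx, and Cdh1, encoding E-cadherin, was dim in mProx and MCT. The tubule markers Pax8 and Cdh16 were at 9.66 and 10.80 in resting MCT and at 10.90 and 12.23 in resting mProx, and Cdh16 was at 9.48 and 10.04 on the stimulated arrays of these lines. Of the 7 tubule markers on the array, Pax8, Cdh16 and Lrp2 were higher on all kidney arrays than on all mammary arrays. Aqp1 was bright in mProx (12.84 at rest) and dim in MCT (5.07), and Hnf4a, Cubn and Slc34a1 did not separate the tissues, Hnf4a being lower at rest in mProx (5.29) and MCT (5.52) than in EpH4 (6.13) and NMuMG (6.23). Elf5, a mammary alveolar factor, was dim on all 8 arrays, and Krt14 was bright only in EpH4. The endothelial marker Pecam1 and the leukocyte marker Ptprc were dim on all 8 arrays. The leukocyte list markers Cd14 (7.89 to 11.09), Csf1r (7.02 to 10.91), Cd68 and Lyz2 were above the dim level on each. In mProx Csf1r went from 10.91 at rest to 7.63, and the fibroblast marker Dcn from 10.56 to 7.53. The summed deposited signal of 6 leukocyte markers ran from 790 to 3330 at rest and from 700 to 1111 after stimulation, and that of 7 fibroblast markers from 209 to 2148 and from 207 to 500. The highest resting value of both lists was that of mProx, and its part in the mProx changes below was not tested. A bulk array cannot tell apart fewer cells that express a gene and less RNA per cell. Median deposited signals ran from 41.5 to 59.6 over the arrays.

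Promoter letters were set beside the expression data because the branches act through known elements. Windows of 300 bases around the transcription start (250 before, 50 after) were taken from RefSeq on GRCm38.p6, where 34 of the 38 genes had one. They were searched on both strands for the ER stress element, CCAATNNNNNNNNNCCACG, and for the core of the C/EBP-ATF response element bound by ATF4, TGATGNAA. The ER stress element was in the windows of 7 of 11 ER chaperones (Hspa5, Hsp90b1, Calr, Canx, Pdia6, Dnajc3 and Creld2) and of 0 of 13 ATF4 targets, against 0.137% of all 27025 genes with a window. The C/EBP-ATF core was in those of 4 of 13 ATF4 targets (Asns, Chac1, Trib3 and Vldlr) and of 0 of 11 ER chaperones, against 4.51% of all genes with a window. Nupr1 and Herpud1 also held the core. The UPR element core TGACGTGG was in none of the 38 windows of the listed genes and in 0.676% of all 32851 windows. Its complement shares the letters CCACG with the ER stress element. The motifs were chosen as the known elements of these branches, so their shares among the listed genes are a description and not a test. A match describes the letters of a window and does not show that a factor binds there. The 250 bases upstream of 5 starts follow, Asns and Chac1 as ATF4 targets that were higher in the kidney lines, Vldlr as one that was lower, and Hspa5 and Hsp90b1 as chaperones with the ER stress element. The fixed letters of the matched motifs are in capitals.
Asns (GRCm38.p6 chr6:7693210-7693459, minus strand): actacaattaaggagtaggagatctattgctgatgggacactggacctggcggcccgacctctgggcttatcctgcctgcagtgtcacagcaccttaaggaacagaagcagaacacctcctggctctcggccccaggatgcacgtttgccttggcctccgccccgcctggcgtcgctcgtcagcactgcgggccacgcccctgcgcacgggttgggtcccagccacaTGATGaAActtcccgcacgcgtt
Chac1 (GRCm38.p6 chr2:119350992-119351241, plus strand): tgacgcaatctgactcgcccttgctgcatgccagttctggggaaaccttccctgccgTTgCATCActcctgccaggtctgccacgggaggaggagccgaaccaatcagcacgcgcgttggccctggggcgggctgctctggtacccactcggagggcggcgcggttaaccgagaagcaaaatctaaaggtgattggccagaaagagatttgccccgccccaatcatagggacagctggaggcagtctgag
Vldlr (GRCm38.p6 chr19:27216770-27217019, plus strand): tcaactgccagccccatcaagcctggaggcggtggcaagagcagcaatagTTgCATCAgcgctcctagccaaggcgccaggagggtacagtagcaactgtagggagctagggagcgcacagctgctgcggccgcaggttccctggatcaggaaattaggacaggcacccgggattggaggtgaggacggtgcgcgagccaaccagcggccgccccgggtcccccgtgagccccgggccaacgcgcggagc
Hspa5 (GRCm38.p6 chr2:34771840-34772089, plus strand): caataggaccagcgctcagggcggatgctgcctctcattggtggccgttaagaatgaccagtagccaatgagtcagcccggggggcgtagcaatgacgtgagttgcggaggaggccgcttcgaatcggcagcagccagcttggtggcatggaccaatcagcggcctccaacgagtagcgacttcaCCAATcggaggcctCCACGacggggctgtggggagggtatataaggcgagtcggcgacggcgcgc
Hsp90b1 (GRCm38.p6 chr10:86705445-86705694, minus strand): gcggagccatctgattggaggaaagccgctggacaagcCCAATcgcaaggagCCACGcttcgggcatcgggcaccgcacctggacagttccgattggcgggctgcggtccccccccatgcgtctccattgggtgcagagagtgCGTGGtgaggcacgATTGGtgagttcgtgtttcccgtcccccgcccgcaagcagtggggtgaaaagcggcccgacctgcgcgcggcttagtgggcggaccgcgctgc

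The Hsp90b1 window holds the ER stress element on each strand, with first bases at -212 and -107 from the start site. That of Hspa5 begins at -65. The core begins at -23 in the Asns window, at -193 in Chac1 and at -200 in Vldlr, and that of Trib3 at 14, past the start site.

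Most ATF4 targets were higher after stimulation in mProx, and in MCT by a smaller amount that depended on the processing. In mProx 12 of the 14 ATF4 targets were higher, with a median change of 0.66, and in MCT 10 of 14, with a median of 0.23. The MCT median was 0.09 on the deposited scale and with the mean of all probe sets, and there that of ER chaperones was -0.19, further from rest. Over the 8 ATF4 targets with a second probe set, the MCT median was 0.01 in second sets, against 0.17 in the sets used. The median was -0.06 in EpH4, where 5 of 14 were higher, and -0.17 in NMuMG, where 3 were. The 13 ER chaperones had medians of 0.10 in mProx, -0.06 in MCT, -0.14 in EpH4 and 0.08 in NMuMG. ATF4 targets thus exceeded ER chaperones by 0.56 in mProx and 0.30 in MCT, by 0.08 in EpH4, and lay 0.25 below them in NMuMG. Over all genes tested the medians were 0.00, 0.01, -0.01 and 0.04 in EpH4, mProx, MCT and NMuMG. Of all 38 genes, 28 were higher in mProx, against 50.7% of all genes tested, 18 in MCT, against 47.9%, 15 in NMuMG, against 54.5%, and 7 in EpH4, against 49.5%. Ddit4 and Shmt2 were higher in each of the 4 lines, as were 10.5% of all genes, and Vldlr, Calr and Sel1l were lower in each, as were 9.26%. With 1 array per line and condition, these medians have no replicate check within a line.

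**Figure D1:**
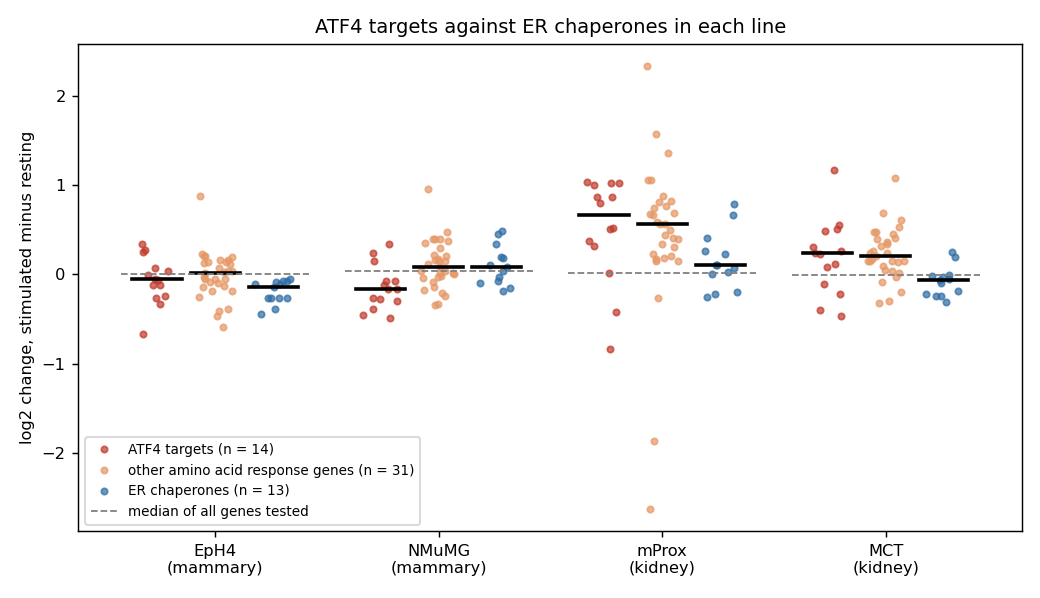
Change in each line (log2, stimulated minus resting) of the 14 ATF4 targets, 31 other amino acid response genes and 13 ER chaperones. Each point is a gene, black bars are medians and dashed lines the median of all genes tested. The ATF4 targets' medians are 0.66 in mProx and -0.17 in NMuMG, and the chaperones' medians lie between -0.14 and 0.10.

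The level of scaling between arrays moves these medians, since quantile normalization sets the overall distribution of each array equal. On the deposited scale the median of all genes shifted by 0.34 in NMuMG, and by -0.11 in mProx, -0.24 in MCT and -0.28 in EpH4. Relative to that shift, the ATF4 targets stood at 0.65 in mProx, 0.33 in MCT, 0.01 in EpH4 and -0.16 in NMuMG, close to their place under quantile normalization. Unshifted, the NMuMG median of ATF4 targets turned to 0.18 on the deposited scale, and it was 0.00 with median centring, as was that of EpH4. The MCT median of ER chaperones turned to 0.02 with median centring. The mProx medians kept their sign under each scaling tried.

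None of the 38 genes passed limma's test of the response over 4 lines, in which 0% of the 12673 genes did, and the smallest adjusted p among them was 0.167, for Ddit4. Without the EpH4 arrays 0 of 38 passed, against 0.103% of all genes, and the smallest adjusted p was 0.124, again for Ddit4. An unadjusted p under 0.05 was reached over 4 lines by 4 of the 38, Ddit4, Vldlr, Shmt2 and Nupr1, which is 10.5% against a background of 11.6% of all genes. Over the 3 lines it was reached by Ddit4, Vldlr, Shmt2 and Pdia4, 10.5% against 12.6%. These shares are near the background and say nothing particular of the 38 genes. Past a fixed fold within a line, 9 of the 38 were higher by at least 1.5-fold in mProx, against 8.85% of all genes, and Vldlr alone was that much lower, against 7.71%. In EpH4 Vldlr alone was lower by at least 1.5-fold, against 3.69%, and in MCT 0 were, against 8.25%. A decrease of at least 2-fold was seen for 0 of the 38 in EpH4, mProx and MCT, against 1.01%, 2.49% and 2.78%. An increase of at least 2-fold was seen for 0 in EpH4 and NMuMG, against 1.34% and 3.05%.

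**Figure D2:**
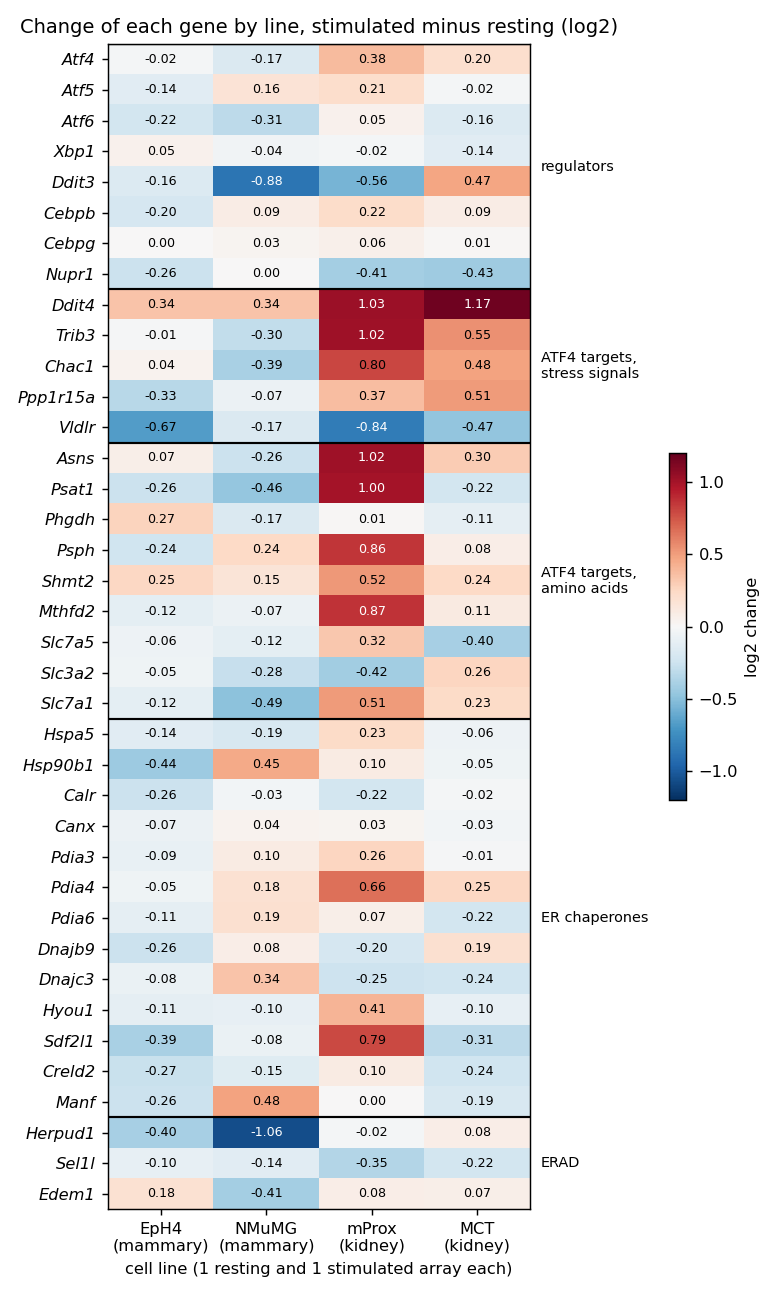
Change (log2, stimulated minus resting) of the 38 genes in the 4 lines, grouped by role, with the value in each cell. Red is higher and blue lower after stimulation. The red block of ATF4 targets in mProx, with Ddit4, Trib3, Asns and Psat1 between 1.00 and 1.03, is paler in MCT and not seen in EpH4 and NMuMG.

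Among the regulators, Atf4 itself spanned 1.01 between resting lines. It was at 12.42 at rest and 12.40 after stimulation in EpH4, 11.44 and 11.82 in mProx, 12.10 and 12.30 in MCT, and 11.41 and 11.24 in NMuMG. Both kidney lines were higher after stimulation and both mammary lines lower, by at most 0.38 and 0.17. Since ATF4 is controlled mainly through translation of its mRNA, the array does not measure its activity. A second bright Atf4 probe set changed by 0.95 in mProx, more than the 0.38 of the one used, and by 0.32 in MCT, -0.07 in EpH4 and 0.31 in NMuMG, so the probe sets differed in size in mProx and in direction in NMuMG.

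Ddit3, encoding the pro-apoptotic factor CHOP, differed in direction from most ATF4 targets in mProx, and shared the sign of their median in the other 3 lines. It went from 9.76 to 9.21 in mProx, from 9.03 to 8.15 in NMuMG, from 11.19 to 11.03 in EpH4 and from 9.73 to 10.20 in MCT. Only MCT was higher, by 0.47, and the mean over the 4 lines was -0.28 ± 0.58 (SD, n = 4). In the other Ddit3 probe set, much dimmer, the change was below 0 in each line, MCT included at -0.20. In NMuMG Ddit3 was 1 of 2 genes of the 38 lower by at least 1.5-fold, against 6.3% of all genes.

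The other regulators moved by less. Nupr1, a small stress-induced chromatin protein, went from 12.34 to 12.09 in EpH4, 9.90 to 9.48 in mProx and 9.45 to 9.01 in MCT, and stayed at 10.46 in NMuMG. Its change of -0.27 with an SE of 0.10 did not pass (limma adjusted p = 0.367). Xbp1 and Atf6, the transcription factors of the ER branch, changed by -0.14 to 0.05 and by -0.31 to 0.05, and the array does not separate spliced from unspliced Xbp1. Atf5, Cebpb and Cebpg, partner factors of ATF4, stayed within -0.20 to 0.22 in each line. These ranges hold for the probe sets used. Another Cebpb set changed by 0.48 in mProx, 0.52 in MCT, -0.26 in EpH4 and -0.03 in NMuMG. The other Cebpg sets changed by 0.30 and -0.54 in mProx. Another Atf6 set changed by 0.58 in mProx and 0.25 in NMuMG, and a further set by -0.26 and -0.03.

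Of the ATF4 targets in stress signalling, Ddit4, which encodes the mTORC1 inhibitor REDD1, was higher in each line. Its level went from 11.12 to 11.46 in EpH4, 10.63 to 11.66 in mProx, 10.66 to 11.83 in MCT and 11.06 to 11.40 in NMuMG. The 4 resting values lay within 0.49 of each other, and the kidney lines, lowest at rest, were highest after stimulation. Its mean change was 0.72 ± 0.44 (SD, n = 4), with a 95% interval of 0.37 to 1.07 (limma adjusted p = 0.167). Whether Ddit4 passed depended on the scale. Over the 3 lines without EpH4 the change was 0.84 (limma adjusted p = 0.124), against 0.90 on the deposited scale (limma adjusted p = 0.00739) and 0.95 with median centring (limma adjusted p = 0.0283). Over all 4 lines it passed on the deposited scale, at 0.69 (limma adjusted p = 0.0109). With EpH4 and NMuMG both left out it passed as well, at 1.10 (limma adjusted p = 0.0225). Ddit4 is also known to respond to hypoxia and glucocorticoids, apart from ATF4. In MCT it was the only 1 of the 38 genes higher by at least 2-fold, against 2.79% of all genes.

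Trib3, a pseudokinase that feeds back on ATF4, varied most between resting lines among the targets of this group apart from Vldlr. It was at 12.06 and 12.05 in EpH4, 8.31 and 9.33 in mProx, 10.70 and 11.25 in MCT, and 8.09 and 7.79 in NMuMG. The kidney lines were higher after stimulation by 1.02 and 0.55, and EpH4 held a level above all 6 other arrays without a change. A second Trib3 probe set had 0.93, 0.80 and -0.11 in mProx, MCT and EpH4 but 0.51 in NMuMG. The 2 probe sets therefore differ in direction in NMuMG.

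Chac1, a glutathione-degrading enzyme, went from 8.85 to 9.64 in mProx and from 10.20 to 10.69 in MCT. It went from 10.27 to 10.31 in EpH4 and from 9.24 to 8.86 in NMuMG. Ppp1r15a, encoding the GADD34 subunit that reverses eIF2α phosphorylation, changed by 0.37 in mProx and 0.51 in MCT, and by -0.33 in EpH4 and -0.07 in NMuMG. For both genes the 2 kidney changes, though not the levels, lay above the 2 mammary changes.

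Vldlr, a lipoprotein receptor gene that ATF4 is known to induce, was lower in each line. Its level went from 5.61 to 4.95 in EpH4, from 11.95 to 11.12 in mProx, from 10.08 to 9.61 in MCT and from 10.57 to 10.40 in NMuMG. EpH4 stood 5.26 below the mean of the other lines at rest and was dim after stimulation, so its change there is not exact. The mean was -0.54 ± 0.29 (SD, n = 4; limma adjusted p = 0.216). All 5 other Vldlr probe sets read lower in mProx, by 0.81 to 1.67, while 4 of the 5 were higher in at least 1 other line. The low EpH4 level was also seen with all 5, at 3.78 to 4.93 at rest.

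**Figure D3:**
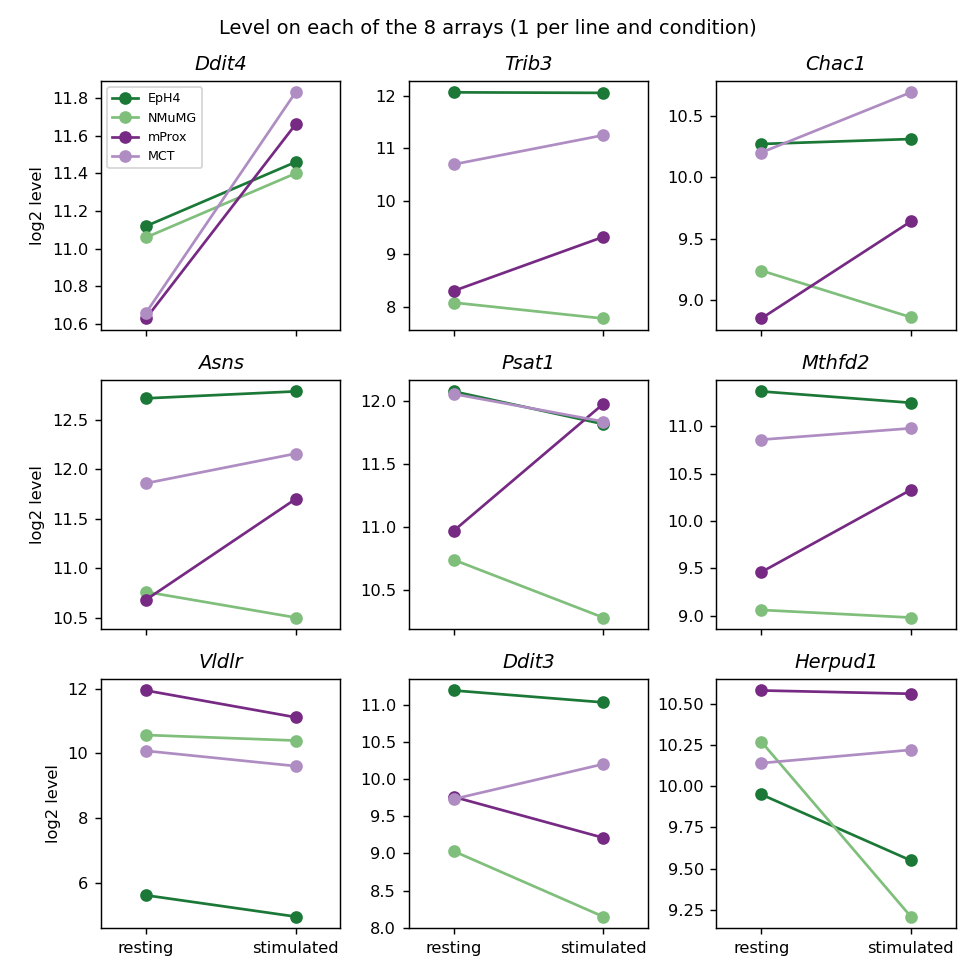
Log2 level of 9 genes on each of the 8 arrays, resting joined to stimulated for each line. Ddit4 is higher in each line, and Trib3, Chac1 and Asns are higher in mProx and MCT and not in NMuMG. Vldlr is lower in each line and far lower in EpH4, and Herpud1 is lower by 1.06 in NMuMG.

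Of the 9 ATF4 targets of amino acid supply, 7 had their largest increase over rest in mProx, the others being Phgdh, with its largest in EpH4, and Slc3a2, with its largest in MCT. In mProx Asns, asparagine synthetase, went from 10.68 to 11.70, and the serine synthesis genes Psat1 and Psph from 10.97 to 11.98 and from 9.90 to 10.75. Mthfd2 and Shmt2, of mitochondrial one-carbon metabolism, went from 9.46 to 10.33 and from 11.23 to 11.75. In all, 7 of the 14 ATF4 targets were higher by at least 1.5-fold in mProx, against 8.85% of all genes, and 4 by at least 2-fold, against 2.9%. Those 7 were Ddit4, Trib3, Chac1, Asns, Psat1, Psph and Mthfd2.

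The other lines did not share these values. Asns went from 11.86 to 12.16 in MCT, 12.72 to 12.79 in EpH4 and 10.76 to 10.50 in NMuMG. Psat1 went from 12.06 to 11.84 in MCT, 12.08 to 11.82 in EpH4 and 10.74 to 10.28 in NMuMG, so that mProx alone was higher. Mthfd2 changed by 0.11 in MCT, -0.12 in EpH4 and -0.07 in NMuMG, and Psph by 0.08, -0.24 and 0.24. Shmt2 alone of the 9 was higher in each line, by 0.52 in mProx, 0.24 in MCT, 0.25 in EpH4 and 0.15 in NMuMG (limma adjusted p = 0.286). Of its 3 other probe sets, 2 were not higher in each line, one being at -0.22 in MCT and one at -0.76 in mProx. In MCT only Ddit4 of the 14 targets was higher by at least 1.5-fold, against 7.72% of all genes, and in EpH4 and NMuMG 0 of 14 were, against 4.71% and 10.2%.

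The amino acid transporters in the list had smaller and uneven values. Slc7a1, the carrier of cationic amino acids, changed by 0.51 in mProx, 0.23 in MCT, -0.12 in EpH4 and -0.49 in NMuMG. Slc7a5 and Slc3a2 encode the light and heavy chains of the leucine carrier LAT1. Slc7a5 changed by 0.32 in mProx and -0.40 in MCT, and Slc3a2 by -0.42 in mProx and 0.26 in MCT, so the partners moved in opposite directions in both kidney lines. In EpH4 and NMuMG Slc7a5 changed by -0.06 and -0.12 and Slc3a2 by -0.05 and -0.28.

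Phgdh, which catalyses the first step of serine synthesis, depended on the probe set. The one chosen by the rule was at 7.60 in resting EpH4 and at 11.89, 12.45 and 12.80 in NMuMG, mProx and MCT. The other 3 Phgdh probe sets read 10.64, 11.41 and 11.66 in resting EpH4 and 10.95 to 12.32 in the other resting lines. A low Phgdh level in EpH4 thus rests on 1 of 4 probe sets, all of a kind marked as prone to cross-hybridisation. On the log2 scale the mean of the chosen set, 11.18, was below those of 2 others, at 11.82 and 11.78. Its changes were between -0.17 and 0.27 in the 4 lines.

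**Figure D4:**
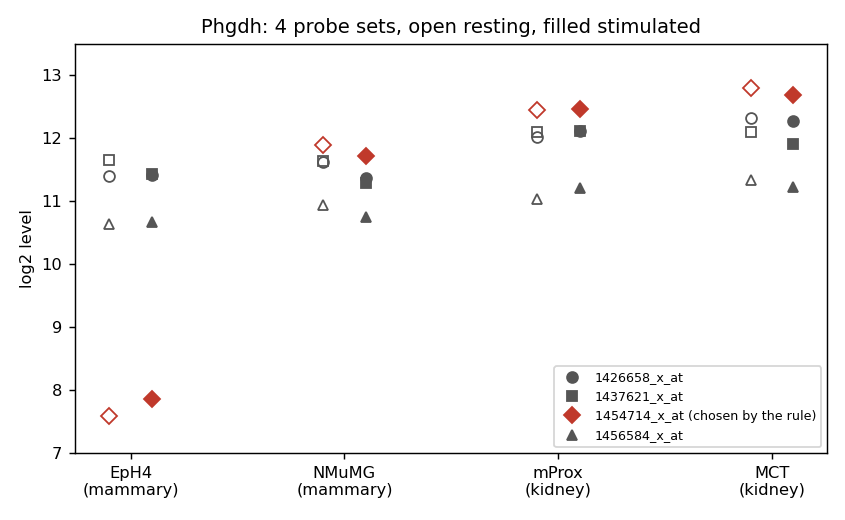
Log2 level of the 4 Phgdh probe sets in each line, resting (open) and stimulated (filled). The chosen set (red) is at 7.60 in resting EpH4, where the other sets are at 10.64 to 11.66, and the sets lie closer together in the other lines.

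The kidney and mammary responses were compared by limma and, in counts chosen after these values were seen, by whether the changes of the tissues overlapped. In 8 of the 14 ATF4 targets both kidney changes lay above both mammary changes, against 15.7% of all genes. They were Ddit4, Trib3, Chac1, Ppp1r15a, Asns, Psat1, Mthfd2 and Slc7a1. The same held for 2 of 13 ER chaperones, Hspa5 and Pdia4. With median centring it held for 1 of 13, against 11.1% of all genes, and on the deposited scale for 0 of 13. Another bright Hspa5 probe set changed by -0.04 in mProx, -0.02 in MCT and 0.15 in NMuMG, so it did not share this order. The reverse, both kidney changes below both mammary changes, held for Nupr1, Dnajc3 and Sel1l, against 18.5% of all genes. Atf4, Trib3, Ppp1r15a, Mthfd2 and Slc7a1 were higher in both kidney lines and lower in both mammary lines, against 4.77%. Another bright probe set was higher in NMuMG for Atf4 by 0.31, for Trib3 by 0.51 and for Mthfd2 by 0.76. For Slc7a1 another set read 0.00 in MCT, and Ppp1r15a has only 1 probe set. On the deposited scale both kidney changes lay above both mammary changes for 5 of the 14 ATF4 targets, against 4.27% of all genes. In second probe sets, which 8 of the targets have, this held for 4 of 8. In limma's test of the difference 0% of all genes and 0 of the 38 passed. Ddit4 had the smallest p of the 38, and its mean change was 1.10 in the kidney and 0.34 in the mammary lines (difference 0.76, SE 0.15, limma adjusted p = 0.614). Trib3 had 0.79 against -0.15 (difference 0.94, SE 0.23, limma adjusted p = 0.742). An unadjusted p under 0.05 was reached by 8 of the 38, against 5.89% of all genes, and besides these they were Atf4, Chac1, Ppp1r15a, Asns, Slc7a1 and Herpud1. That count was 6 with median centring and 0 on the deposited scale, and the share of all genes was not counted for these scalings. Without the MCT arrays Psat1 passed, with mProx alone standing for the kidney and assumed to vary like the other lines.

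The 13 ER chaperones changed little over the 4 lines. Their mean changes ran from -0.14 for Creld2 to 0.26 for Pdia4, with a median of -0.01 against 0.01 for all genes, and their 95% intervals reached from -0.43 to 0.55 at the widest. Hspa5, encoding the master chaperone BiP, was at 13.08 and 12.94 in EpH4, 12.26 and 12.49 in mProx, 13.25 and 13.19 in MCT, and 12.26 and 12.07 in NMuMG. Its mean change was -0.04 ± 0.19 (SD, n = 4), with a 95% interval of -0.22 to 0.14. Canx, the membrane lectin calnexin, had changes of -0.07 to 0.04, and Calr, its soluble counterpart calreticulin, was lower in each line by 0.02 to 0.26. Both other Calr probe sets were higher in NMuMG, by 0.25 and 0.21.

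Pdia4 and Sdf2l1 had the largest chaperone changes in mProx. Pdia4, a protein disulfide isomerase, went from 8.92 to 9.58 and Sdf2l1, a cofactor of BiP, from 8.52 to 9.31. They were the 2 of 13 chaperones higher by at least 1.5-fold there, against 8.85% of all genes. Pdia4 was also higher in MCT, by 0.25, and in NMuMG, by 0.18, and was at -0.05 in EpH4. Sdf2l1 was lower in the other lines, by 0.39 in EpH4, 0.31 in MCT and 0.08 in NMuMG. Hyou1, the large ER chaperone that exchanges nucleotide on BiP, was higher by 0.41 in mProx and between -0.11 and -0.10 in the others, but its other probe sets read -0.08 and 0.60 in mProx.

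In EpH4 all 13 chaperones were lower after stimulation, by 0.05 to 0.44, with Hsp90b1, the ER member of the HSP90 family, lowest at -0.44, while 49.5% of all genes were higher. On the deposited scale, where the median of all genes in EpH4 was -0.28, all 13 were again lower, and with median centring 1 was higher. On the deposited scale all 13 were higher in NMuMG, where the median of all genes was 0.34, against 8 after quantile normalization. In NMuMG Hsp90b1 was higher by 0.45 and the secreted stress factor gene Manf by 0.48. Another bright Hsp90b1 probe set changed by only 0.05 in NMuMG, and by -0.37 in EpH4, 0.07 in mProx and -0.14 in MCT. The test of Hsp90b1 that follows holds for the set used. The difference of Hsp90b1 between EpH4 and the other 3 lines was -0.60 with an SE of 0.22, and the adjusted p in limma was 1.00, with 0% of all genes passing. Hsp90b1 was the 1 gene of the 38 with an unadjusted p under 0.05 there, against 3.46% of all genes. The cochaperone genes Dnajb9 and Dnajc3 stayed within -0.26 to 0.34 in each line, and the isomerase genes Pdia3 and Pdia6 within -0.22 to 0.26. These ranges hold for the probe sets used. Another Dnajc3 set changed by 0.68 in NMuMG and -0.46 in MCT. Much dimmer sets of Pdia3 and Pdia6 changed by 1.03 and -1.45 in NMuMG.

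Of the ER-associated degradation genes, Herpud1, a stress-induced membrane protein of the degradation complex, was lower in NMuMG by 1.06, from 10.27 to 9.21. A second probe set read -1.16 there. In EpH4 it went from 9.95 to 9.55, and in mProx and MCT it changed by -0.02 and 0.08. It was the 1 gene of the 38 lower by at least 2-fold in NMuMG, against 2.01% of all genes. Sel1l, the adaptor of the degradation ligase, was lower in each line by 0.10 to 0.35 (limma adjusted p = 0.447), though 1 of its 4 other probe sets was higher in mProx by 0.37. Edem1, which directs misfolded glycoproteins to degradation, changed by -0.41 in NMuMG and by 0.07 to 0.18 elsewhere. Its other probe set read 0.05 in NMuMG, 0.65 in mProx, -0.12 in EpH4 and -0.02 in MCT.

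Resting levels spread over 0.14 between lines for Canx and over 6.34 for Vldlr, the ends of the range among the 38. MCT had the highest resting level for 12 of the 13 ER chaperones, against 23.9% of all genes, Dnajc3 being the exception with mProx highest. In MCT Hspa5 was at 13.25, Manf at 12.30, Sdf2l1 at 11.15 and Creld2 at 11.06. The next highest resting values of these genes were 13.08 in EpH4 for Hspa5, 11.63 in EpH4 for Manf, 9.81 in NMuMG for Sdf2l1 and 10.01 in mProx for Creld2. With median centring the count was again 12, and on the deposited scale it was 8 of 13, against 15.6% of all genes. NMuMG was lowest for 6 of the 13, against 33% of all genes.

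EpH4 had the highest resting level for 9 of the 14 ATF4 targets and 5 of the 8 regulators, against 32.1% of all genes. Beside Trib3, these included Asns at 12.72, Mthfd2 at 11.37 against 9.06 to 10.86, Ppp1r15a at 11.35 against 8.74 to 10.22, Ddit3 at 11.19 against 9.03 to 9.76, and Nupr1 at 12.34 against 9.45 to 10.46. The lead was narrow for Psat1 (12.08 against 12.06 in MCT) and Chac1 (10.27 against 10.20 in MCT). It was also narrow for Slc3a2 (12.26 against 12.20 in NMuMG) and Ddit4 (11.12 against 11.06 in NMuMG). On the deposited scale the count of targets was 10 of 14, where EpH4 was highest for 50.4% of all genes. Of all 38 genes, NMuMG was highest at rest for 1, Atf6, against 22.1% of all genes, and mProx for 3, Vldlr, Dnajc3 and Herpud1, against 21.9%. The lowest resting level was that of NMuMG for 16, against 33%, of mProx for 14, against 25.2%, of EpH4 for 6, against 24.5%, and of MCT for 2, Nupr1 and Slc3a2, against 17.4%. In the test of kidney against mammary lines at rest, 0% of all genes and 0 of the 38 passed in limma, Psph, the 1 gene with an unadjusted p under 0.05 against 7.42% of all genes, having the smallest adjusted p, 0.668, with means of 10.53 in the kidney and 9.11 in the mammary lines.

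**Figure D5:**
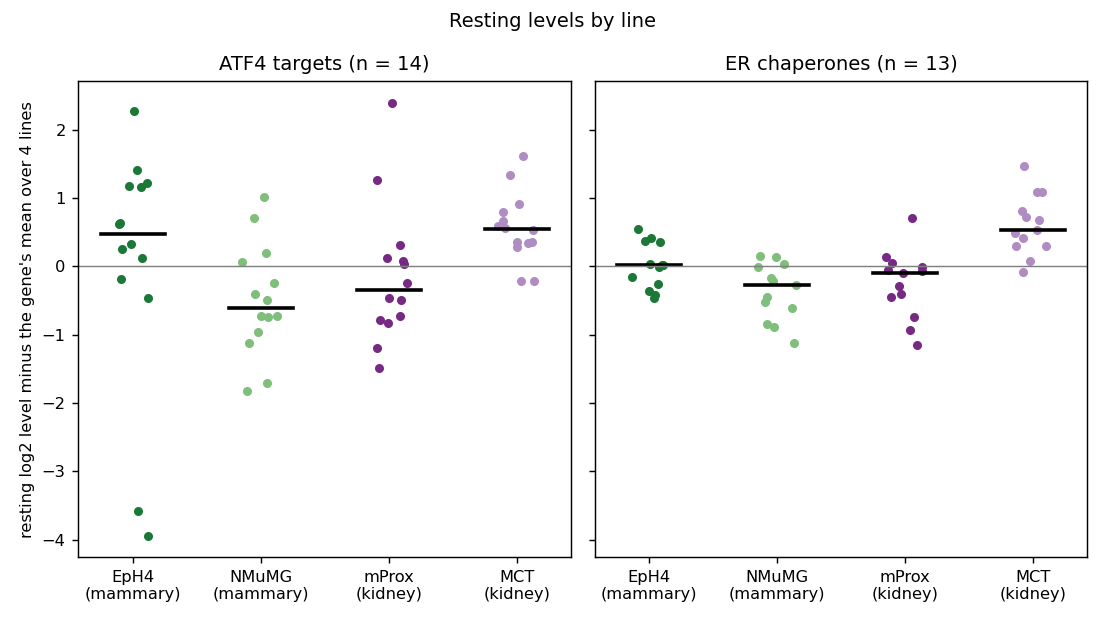
Resting log2 level of each gene minus its mean over the 4 lines, for 14 ATF4 targets and 13 ER chaperones, 1 point per gene, with medians as bars. The chaperones sit highest in MCT, with a median of 0.54. The ATF4 targets have medians of 0.47 in EpH4 and 0.55 in MCT and of -0.61 in NMuMG.

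Other genes of the pathways, from lists chosen by name, were read in the same way. Of 31 other amino acid response genes tested, 28 were higher in mProx (median 0.56), against 50.7% of all genes, and 26 in MCT (median 0.20), against 47.9%. In EpH4 16 were higher (median 0.02), against 49.5%, and in NMuMG 20 (median 0.08), against 54.5%. Both kidney changes lay above both mammary changes for 18 of the 31, against 15.7% of all genes, but on the deposited scale for 2 of 31, against 4.27%. In mProx 14 of the 31 were higher by at least 1.5-fold, against 8.85% of all genes. In MCT 3 were, against 7.72%, and 1 each in EpH4, against 4.71%, and NMuMG, against 10.2%. None passed limma's test over 4 lines. The 3 with the largest mean change among those higher in each line were Mthfd1l, of mitochondrial one-carbon metabolism, at 0.59 ± 0.66 (SD, n = 4; limma adjusted p = 0.381), the neutral amino acid carrier gene Slc1a4 at 0.56 ± 0.38 (limma adjusted p = 0.293) and the alanine transaminase gene Gpt2 at 0.51 ± 0.39 (limma adjusted p = 0.309). In mProx alone they were higher by 1.57, 1.05 and 1.05.

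The 28 other ER folding and quality control genes had medians of 0.03, 0.05, 0.00 and 0.05 in EpH4, mProx, MCT and NMuMG. In mProx 1 of 28 was higher by at least 1.5-fold, against 8.85% of all genes, the oxidase gene Ero1a at 1.00. Those higher in each line with the largest means were Pdia5 at 0.28, Wfs1 at 0.21 and Ppib at 0.13, and those lower were Uggt1 at -0.19, Dnajb11 at -0.17 and Edem3 at -0.15, none past the test. Of the 10 stress sensor and protease genes, Ern1, encoding the sensor IRE1α, was higher in each line, by 0.07 to 0.15.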

How the data were processed

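Total RNA of 8 cultures was hybridised to single-colour mouse genome arrays, 1 array per line and condition. The deposited values are linear intensities for 45101 probe sets, made with MAS5 per the submitters' processing notes. Neither the MAS5 version nor its target intensity is stated in the labels. After 64 control probe sets were left out, 10.6 (the 25th percentile of positive signals) was added, log2 taken, and the arrays quantile-normalized because their medians differed by 0.43. The offset understates changes of dim genes. Of the probe sets, 34945 have 1 symbol, 932 several and 9160 none; 34741 symbols were matched to GRCm38.p6 by Entrez identifier and 0 changed. Genes with a mean level of at least 5.27, the 40th percentile, entered a limma fit (version 3.58.1, R 4.3.3, lmFit, eBayes with trend, Benjamini-Hochberg over all 12673 genes, threshold 0.05). The cell line was the block, its pairs coming from line names, and both arrays of a line deviated together (r = 0.816 to 0.908 across genes). The labels do not say how cultures were replicated. The p-values rest on differences between lines, which hold culture and array noise as well, with variances drawn toward those of all genes. Tested on simulated data for the 4-line response over 12673 genes, the fit recovered 71% of changes of 1 and 94% of changes of 2 on the log2 scale. There were 7 false calls. Each line was given the same change, unlike in the real data, and the noise of the most variable genes was capped. These rates may therefore overstate recovery in the real data. The 38 genes, the other lists and the rules were chosen with earlier results of these data known. All 38 are named, and of the other pathway lists up to 3 genes each way with the largest mean change among those alike in direction in each line; others named were chosen after their values were seen. Alternatives were scaling, offset, filter, probe set, trend, block and each line left out. The number of arrays limits the precision.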

Additional observations from a re-analysis of the deposited data

Results flagged for a closer look

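Over the 114 sets of 4 values that the 38 genes give (resting levels, stimulated levels and changes), a single line lay far from the others in 4, where chance alone would flag about 1 in 20, so their number does not exceed that share. The change of Psat1 was 1.00 in mProx and -0.46 to -0.22 in the other lines. Its stimulated level was 10.28 in NMuMG and 11.82 to 11.98 elsewhere. The change of Hyou1 was 0.41 in mProx and -0.11 to -0.10 elsewhere. The stimulated level of Calr was 12.70 in MCT and 12.12 to 12.17 elsewhere. Each value is that of 1 array or 1 pair of arrays.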

How the results depend on the processing

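Over the alternatives tried, 154 comparisons of a main result with its value here stayed the same and 32 moved. Numbers of passing genes moved with the scaling and with the lines kept. On the deposited scale 244 genes passed over 4 lines, 225 over 3 lines, 5 in the EpH4 difference, 22 in the kidney against mammary response and 8 at rest, with 1 of the 38 genes, Ddit4, in each of the first 2. With median centring 24 and 77 genes passed over 4 and 3 lines, with 1 of the 38, Ddit4, over 3 lines. Over 4 lines 1 gene passed with an offset of 1 and 8 with 42.4. Over 3 lines, where 13 genes passed, 8 did with an offset of 42.4, 21 with a filter at the 60th percentile, 8 with the mean of all probe sets, and 0 with no filter, with no intensity trend or without the line as a block. Without the block 0 genes also passed over 4 lines, so the pairing changed no call there. Leaving out each line in turn gave 0 to 13 genes over 4 lines (13 without EpH4), 6 to 72 over 3 lines (6 without mProx, 28 without MCT, 72 without NMuMG) and 0 to 41 in the kidney against mammary response (17 without mProx, 41 without MCT), and 0 to 1 of the 38 genes in the latter 2, Ddit4 without NMuMG and Psat1 without MCT. The median change of ER chaperones moved to -0.38 in EpH4, -0.19 in MCT and 0.44 in NMuMG on the deposited scale. It moved to 0.27 in NMuMG with median centring and to -0.19 in MCT with the mean of all probe sets. Second probe sets, a choice made after seeing the data, cover 8 chaperones and gave 0.20 in NMuMG. The sets used for those 8 gave 0.07 there. The median of ATF4 targets moved in MCT from 0.23 to 0.09 on the deposited scale and with the mean of all probe sets. In NMuMG it moved from -0.17 to 0.18 on the deposited scale. Over the 8 targets with a second probe set, the MCT median was 0.01 in second sets, against 0.17 in the sets used. The EpH4 difference could not be fitted without EpH4. The cause of the shifts was not tested.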

Other observations

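Outside the 38 genes, mProx held the largest single values of the amino acid list, chosen here after they were seen. Cth, which makes cysteine from cystathionine, was higher there by 2.33, and also by 0.69 in MCT and 0.95 in NMuMG, with -0.09 in EpH4. Cbs, which makes that cystathionine, was lower in mProx by 2.63, and at 0.14, 0.47 and 0.88 in MCT, NMuMG and EpH4, with 1 of its 8 values dim. Stc2, a secreted stanniocalcin, was lower by 1.87 in mProx and by 0.59 in EpH4, and at 0.05 and 0.39 in MCT and NMuMG. The membrane-bound transcription factor genes Creb3l1 and Creb3l2 changed by 1.39 and 0.46 in NMuMG and by 0.06 and -1.19 in mProx. Derl3, a membrane protein of ER-associated degradation, was at -2.15 in NMuMG and 1.05 in EpH4, with 3 of its 8 values dim. Each is a difference of 1 pair of arrays with no replicate check.

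Probe sets of a gene did not always share a direction. Of the 38 genes, 26 have another probe set above the dim level, 49 in all, and 33 of the 49 had the sign of the mean change of the one used. For Mthfd2 in NMuMG the values were -0.07 and 0.76, and for Asns -0.26 and 0.12. Over the 8 ATF4 targets with a second probe set, the medians in second sets were 0.92 in mProx, 0.01 in MCT, -0.09 in EpH4 and 0.02 in NMuMG, against 0.69, 0.17, -0.06 and -0.21 in the sets used.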
